A study of Mus musculus with 6 samples.

Results

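The tumour necrosis factor (TNF) superfamily genes examined here were the rows of the expression table whose symbol begins with Tnfrsf, for receptors, or Tnfsf, for ligands, followed by a digit. There were 31 of them among 38926 gene symbols, 20 receptors and 11 ligands. The RNA came from blood stem and progenitor cells, sorted as Lin- Sca1+ cKit+ (LSK) out of femur and tibia marrow of untreated C57BL/6 mice aged 8 to 12 weeks. The 3 control libraries were labelled wild type (WT) and the other 3 were labelled Drd2 Drd3 double knockout (KO), for the genes of a pair of dopamine receptors. The labels do not say how the knockout alleles were made, or that each replicate is another animal. The p-values therefore reflect library-to-library spread, part of which may be technical.

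Values were FPKM, read numbers scaled by gene length and by depth, so levels can be compared between genes. Recovered reads came to 5245255 to 7143455 per library. Drd2 was at 0 FPKM in all 6 libraries. Drd3 was at 0 in those labelled WT and at 1.62, 3.08 and 3.04 FPKM in those labelled KO, the reverse of a lost transcript. As the labels do not say how the alleles were made, the reason was not tested. Every direction below is therefore one between libraries labelled KO and libraries labelled WT. KO replicates 1 and 3 lacked the Y-linked transcript Ddx3y, which was at 12.5 to 15.1 FPKM in the other 4 libraries. They had 1.96 and 2.01 FPKM of Xist, a transcript of female cells, which was at 0 elsewhere. The labels give no sex, and by these transcripts sex was partly confounded with group. The same KO replicates had 3180 and 1170 FPKM of the immunoglobulin gene Igkc against at most 4.93 FPKM elsewhere. Of the genes that define the sort, Kit (105 to 150 FPKM in WT and 82.5 to 129 FPKM in KO) and Ly6a, which encodes Sca1 (110 to 129 and 114 to 161 FPKM), were well above 0 in every library. The T-cell receptor gene Cd3g was at 0 throughout, and Cd3e and the B-cell gene Ms4a1 had means of 0.0929 and 0.0528 FPKM. Other lineage genes were higher. The B-lineage genes Cd79b and Ighm had WT means of 36.7 and 299 FPKM. The T-cell gene Cd4 was at 1.78 FPKM in WT and the neutrophil gene S100a8 at 80.1 FPKM.

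Ligands of the TNF superfamily are trimeric proteins, mostly anchored in the membrane of the cell that makes them, and they act by clustering receptors on a neighbouring cell. Receptors with a cytoplasmic death domain can recruit FADD or TRADD and engage caspase-8 or the kinase RIPK1. Receptors without one bind TRAF adaptors and activate NF-kB and MAP kinases, while decoy receptors bind ligand and do not signal. In blood formation the superfamily is best known for its part in lymphocyte survival, T-cell costimulation, osteoclast formation and the response of progenitors to inflammation.

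In the WT libraries 16 of the 31 members had a mean of at least 1 FPKM, which is taken here as expressed: 10 of 20 receptors and 6 of 11 ligands. Among these 31 genes, receptor transcripts were the more abundant kind. Their summed level was 252 to 285 FPKM in a WT library, against 19.9 to 20.9 FPKM for the ligands. All 7 members with a WT mean of at least 10 FPKM were receptors. In the libraries labelled KO the sums were 239 to 252 FPKM for receptors and 17.4 to 20.6 FPKM for ligands.

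Among receptors that bind TRAF adaptors, Tnfrsf1b, which encodes the second TNF receptor, had the highest WT level of any member, at 69.4, 64.8 and 53.2 FPKM in replicates 1 to 3. It lay above 92.4% of genes detected in WT. Tnfrsf13b, the receptor TACI that binds the B-cell factors BAFF and APRIL, followed in this class at 40.6, 46.9 and 37.3 FPKM. Both are better known from mature lymphocytes than from progenitors. Tnfrsf18, the T-cell costimulatory receptor GITR, was at 27.0, 30.2 and 25 FPKM, and Tnfrsf12a, the receptor for the ligand TWEAK, at 23.1, 28.7 and 24.3 FPKM. The ranges of Tnfrsf18 and Tnfrsf12a overlapped, so their order was not resolved. Tnfrsf13c, the BAFF receptor of B cells, was lower, at 5.64, 7.70 and 8.89 FPKM. The other 7 of the 12 were under a WT mean of 1 FPKM, from 0.0309 FPKM for Tnfrsf8 to 0.839 FPKM for Tnfrsf14.

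Of the 4 death-domain receptors, Tnfrsf21, known as death receptor 6, was at 49.5, 48.5 and 46.1 FPKM in WT, and Tnfrsf1a, the first TNF receptor, at 40.1, 37.1 and 37.5 FPKM. These ranges did not overlap, and Tnfrsf21 overlapped Tnfrsf13b. Tnfrsf10b, the mouse receptor for the death ligand TRAIL, was at 0.909, 1.78 and 0.858 FPKM. Tnfrsf25, known as death receptor 3, was at 0.141, 0.150 and 0 FPKM, which is 4 reads over the 3 WT libraries.

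The decoy receptors were low, with Tnfrsf22 at a WT mean of 4.13 ± 0.141 FPKM (SD, n = 3 here and throughout), Tnfrsf11b, which encodes the RANKL decoy osteoprotegerin, at 0.405 ± 0.147 FPKM, and Tnfrsf23 at 0.374 ± 0.123 FPKM. Tnfrsf26, a neighbour of Tnfrsf22, was at 13.6 ± 1.90 FPKM. Among 50-base words of the annotated transcripts, 27.4% of those of Tnfrsf22 also occurred in another gene, mainly Tnfrsf23. Reads of this pair may have been left uncounted or given to the other gene, and how shared reads were handled is not stated.

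None of the ligands named Tnfsf exceeded a WT mean of 5.79 FPKM. That was the level of Tnfsf10, which encodes TRAIL, with 7.03, 5.05 and 5.29 FPKM in the 3 libraries. Tnfsf9, a T-cell costimulatory ligand, was at 3.52, 3.47 and 4.55 FPKM, and Tnfsf11, the osteoclast factor RANKL, at 3.15, 2.44 and 2.58 FPKM. Tnfsf14 (LIGHT), Tnfsf13 (APRIL) and Tnfsf4 (the ligand of OX40) had WT means of 2.40 ± 0.102, 2.21 ± 0.750 and 1.65 ± 0.441 FPKM. The remaining 5 were under 1 FPKM, and Tnfsf18, the ligand of GITR, was at 0 in all 6 libraries. More than 46% of the transcript words of Tnfsf12 and Tnfsf13 (46.8 and 57.3%) are shared with an annotated read-through gene that spans both.

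**Figure D1:**
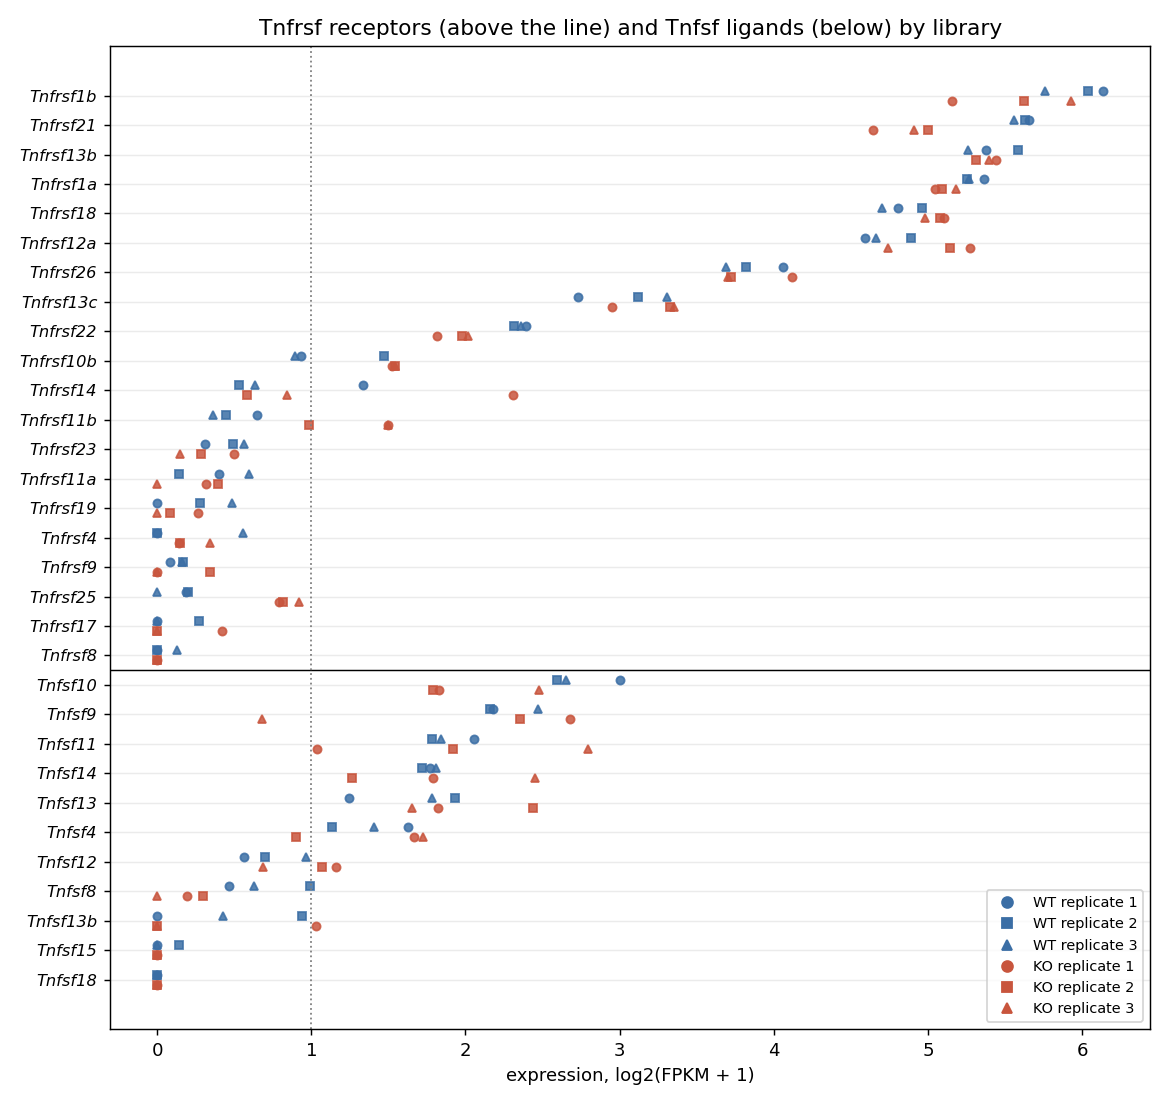
Expression of each member in each library as log2(FPKM + 1), receptors above the line and ligands below, each ordered by WT mean. Blue symbols are the 3 WT and red symbols the 3 KO libraries, and the dotted line marks 1 FPKM. The 7 members above a WT mean of 10 FPKM are all receptors, and Tnfsf18 sits at 0 in every library.

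Ligand and receptor transcripts were set side by side for pairs within the set. Of 15 listed textbook pairs formed within the set, 2 had both partners at a WT mean of at least 1 FPKM. These were Tnfsf10 with Tnfrsf10b, and Tnfsf13 (2.21 FPKM) with Tnfrsf13b (41.6 FPKM). Tnfrsf10b was above 1 FPKM in WT replicate 2 alone (0.909, 1.78 and 0.858 FPKM in replicates 1 to 3). In 4 pairs the receptor alone reached a WT mean of 1 FPKM. Tnfrsf13b stood at 41.6 ± 4.88 FPKM with 0.420 ± 0.463 FPKM of Tnfsf13b, Tnfrsf18 was at 27.4 ± 2.64 FPKM with its ligand gene Tnfsf18 at 0, and Tnfrsf12a at 25.4 ± 2.95 FPKM stood beside 0.684 ± 0.245 FPKM of Tnfsf12. In 6 pairs the ligand alone reached it, as with Tnfsf9 at 3.85 ± 0.614 FPKM and its receptor Tnfrsf9 at 0.101 ± 0.0364 FPKM. The last 3 pairs had neither. The levels of Tnfsf12 and Tnfsf13 are less certain, as 46.8 and 57.3% of their transcript words are shared with a read-through gene. How often unrelated genes would both reach that level was not computed. The list held no pair with the decoy receptors Tnfrsf22 and Tnfrsf23 (4.13 and 0.374 FPKM), so any such pair was not counted. Pairs with a partner of another name were not counted. Among these, Tnf (WT mean 15.3 FPKM) and its receptor genes Tnfrsf1a and Tnfrsf1b (38.2 and 62.5 FPKM) were present together. So were Ltb (102 FPKM) and Ltbr (20.7 FPKM), while Cd27 (108 FPKM) stood beside its ligand gene Cd70 at 0. Pairs that share a gene are not independent of each other, and these are transcript levels in sorted cells, so ligand made by other marrow cells was not measured.

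**Figure D2:**
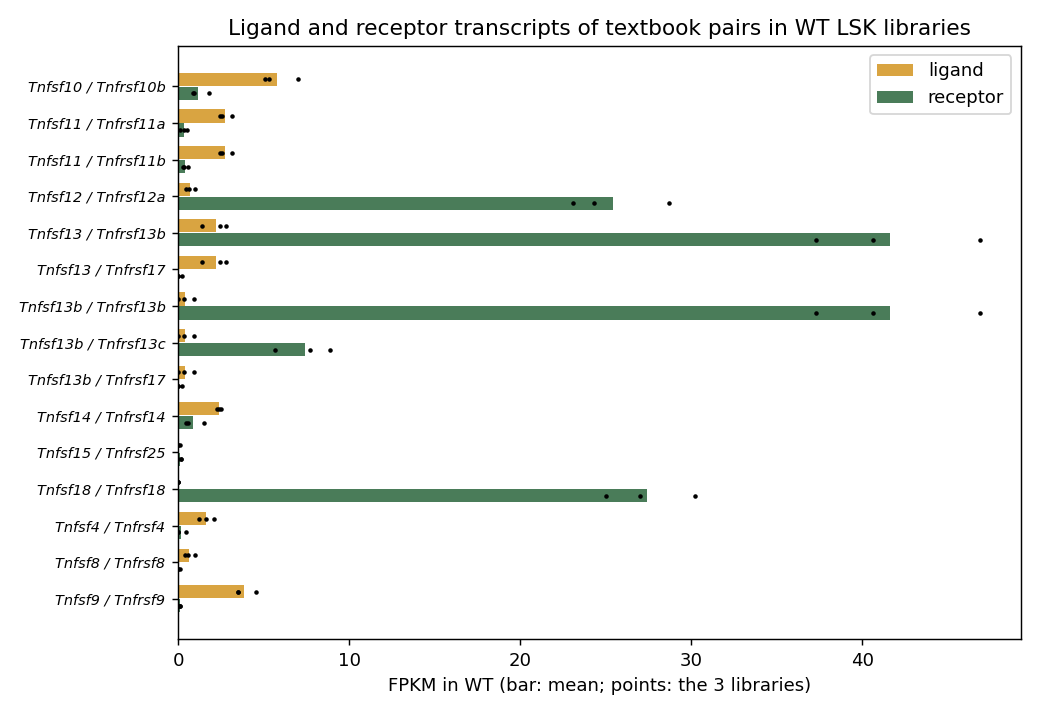
Mean WT level in FPKM of the ligand (yellow) and the receptor (green) of 15 pairs, with points for the 3 WT libraries. Of these listed pairs, only Tnfsf10 with Tnfrsf10b and Tnfsf13 with Tnfrsf13b have both bars at 1 FPKM or more. Tnfrsf10b is above 1 FPKM in WT replicate 2 alone. Tnfrsf18 stands at 27.4 FPKM beside a ligand at 0.

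The members lie in groups on the chromosomes (GRCm38, the same build as mm10), 9 of the 31 on chromosome 4. Neighbours within 100 kb of each other formed 8 adjacent pairs, and several differed widely in level. Tnfrsf4, which encodes the T-cell receptor OX40, and Tnfrsf18 are 9.6 kb apart (chromosome 4, 156013843 to 156028895), with WT means of 0.156 ± 0.271 and 27.4 ± 2.64 FPKM. Tnfrsf1b and Tnfrsf8, the lymphoma marker CD30, are 20.3 kb apart (chromosome 4, 145213463 to 145315164), at 62.5 ± 8.34 and 0.0309 ± 0.0534 FPKM. On chromosome 7, from 143607659 to 143685872, Tnfrsf26, Tnfrsf22 and Tnfrsf23 lie in a row at 13.6, 4.13 and 0.374 FPKM. No member lies on the chromosome of Drd2, and the nearest to Drd3, Tnfrsf17, is 32.4 Mb away.

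The promoters of these contrasting neighbours, and of Tnfrsf21, are printed to show how they differ in CpG content, a feature of many widely active promoters. Each is the 250 bases before the start site in RefSeq (GRCm38.p6), written 5′ to 3′ on the gene's strand, with CpG dinucleotides in capitals.
Tnfrsf18 (chr4:156026072-156026321, plus strand): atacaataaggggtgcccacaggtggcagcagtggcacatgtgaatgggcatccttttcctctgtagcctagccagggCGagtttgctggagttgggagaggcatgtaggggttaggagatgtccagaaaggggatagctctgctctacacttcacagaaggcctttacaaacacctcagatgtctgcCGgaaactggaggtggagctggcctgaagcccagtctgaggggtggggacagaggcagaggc
Tnfrsf4 (chr4:156013445-156013694, plus strand): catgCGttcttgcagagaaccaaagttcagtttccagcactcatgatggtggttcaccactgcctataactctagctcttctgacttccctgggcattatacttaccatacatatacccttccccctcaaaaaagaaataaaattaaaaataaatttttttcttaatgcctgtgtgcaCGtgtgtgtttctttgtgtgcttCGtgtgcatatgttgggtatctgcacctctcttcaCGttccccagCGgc
Tnfrsf1b (chr4:145246871-145247120, minus strand): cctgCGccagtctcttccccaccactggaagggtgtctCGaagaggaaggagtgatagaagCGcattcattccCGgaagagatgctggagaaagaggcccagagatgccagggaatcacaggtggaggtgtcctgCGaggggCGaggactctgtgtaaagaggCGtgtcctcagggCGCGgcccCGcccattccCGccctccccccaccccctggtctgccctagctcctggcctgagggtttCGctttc
Tnfrsf8 (chr4:145315165-145315414, minus strand): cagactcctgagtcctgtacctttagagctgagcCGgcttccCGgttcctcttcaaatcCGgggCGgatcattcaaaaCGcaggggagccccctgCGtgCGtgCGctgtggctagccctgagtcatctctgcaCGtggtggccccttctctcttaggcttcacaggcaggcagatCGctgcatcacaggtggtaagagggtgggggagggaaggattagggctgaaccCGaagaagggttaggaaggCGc
Tnfrsf21 (chr17:43016305-43016554, plus strand): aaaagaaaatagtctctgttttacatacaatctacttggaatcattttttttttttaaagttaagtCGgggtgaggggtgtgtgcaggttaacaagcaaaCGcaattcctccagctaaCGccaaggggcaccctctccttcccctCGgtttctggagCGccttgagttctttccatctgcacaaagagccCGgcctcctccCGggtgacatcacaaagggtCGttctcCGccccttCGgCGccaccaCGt
Tnfrsf18 held 2 CpG dinucleotides and its near-silent neighbour Tnfrsf4 held 5, while Tnfrsf1b and its near-silent neighbour Tnfrsf8 each held 12. Tnfrsf21 also held 12. With these start sites, the CpG count therefore did not follow the level within either pair. In GENCODE M21, Tnfrsf18 starts at 156026164, inside its window, and Tnfrsf4 at 156013843, beyond the end of its window. The counts of that pair therefore depend on the annotation used.

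Promoter sequence was matched for 24 of the 31 members. Using the highest count where a gene had several start sites, the 11 expressed ones held a median of 8 CpG dinucleotides (2 to 15) and the 13 others a median of 6 (2 to 31). Over all genes matched in the same way, the medians were 17 for 7986 genes at a WT mean of at least 1 FPKM and 4 for 9469 genes below it. At least 10 CpG dinucleotides were found in 4 of the 11 expressed members (36.4%), against 80% of all expressed genes. Among the members below 1 FPKM, Tnfrsf11a, which encodes the osteoclast receptor RANK, had the highest count of all 24, at 31. The NF-kB consensus, searched on both strands, was present in 2 of 28 member windows (7.14%), those of Tnfrsf8 and Tnfrsf9, and in 3.90% of all 32851 windows of this length. These are descriptions of sequence, with no test.

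**Figure D3:**
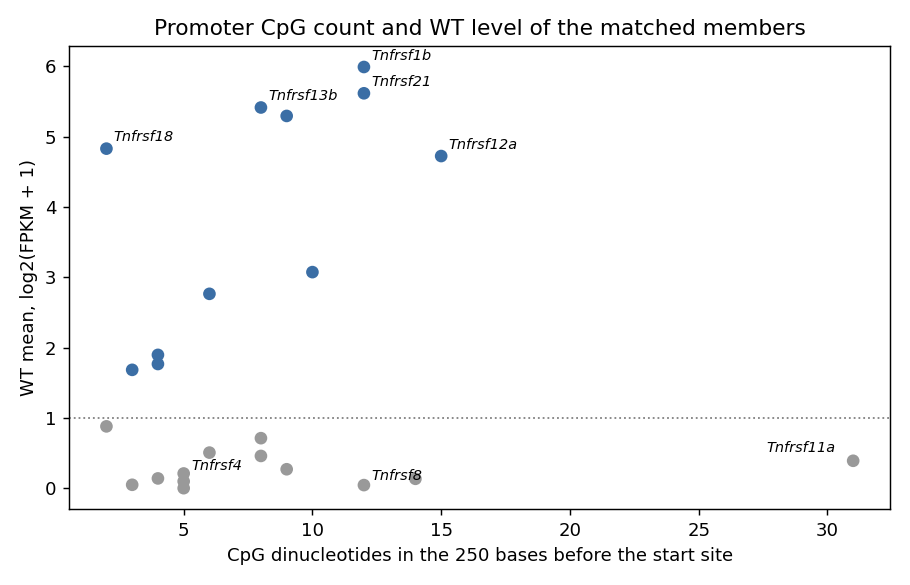
CpG dinucleotides in the 250 bases before the start site (x axis) against the WT mean as log2(FPKM + 1) (y axis) for the 24 matched members, blue where the WT mean is at least 1 FPKM and grey below. Tnfrsf18 combines 2 CpG dinucleotides with 27.4 FPKM, and Tnfrsf11a combines 31 with 0.310 FPKM.

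The comparison of the libraries labelled KO with those labelled WT asked which members differ when both receptor genes are targeted. Tnfrsf21 was the 1 member that passed the test, and it fell. It was at 49.5, 48.5 and 46.1 FPKM in WT and at 24.0, 31.0 and 29.1 FPKM in KO. The highest KO library was well below the lowest WT library, and the mean went from 48.0 ± 1.76 to 28 ± 3.66 FPKM, 1.71-fold lower. Its log2 fold change on log2(FPKM + 1) was -0.76 ± 0.12 (SE), with a 95% interval of -1.02 to -0.50 (limma adjusted p = 0.00505). Tnfrsf21 lies on chromosome 17 from 43016555 to 43089189, overlaps no other annotated gene and had at least 573 to 1121 recovered reads per library. In bulk RNA, fewer cells that carry a transcript and less of it per cell cannot be told apart.

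Of the 31 members, 17 had a mean of at least 1 FPKM over the 6 libraries and were tested. The 1 call is 5.88% of these, against 10.9% of all 11371 genes tested (5.43% lower and 5.48% higher), so the share among the members was not above the background. No member was called higher: at an unadjusted p under 0.05 limma gave 0 higher and 3 lower (17.6%, against 27.5% of all tested genes), and limma's voom on recovered reads called 0 higher and 2 lower (11.8%, against 13.9%).  The groups did not overlap in 6 of the 17 (35.3%, against 32.8% of all tested genes), with 4 lower and 2 higher in KO. The median log2 fold change was 0.025 over the tested members and -0.002 over all tested genes, and 8 of the 17 were below 0. With a term for Y-linked transcripts Tnfrsf21 missed the threshold (-0.61, limma adjusted p = 0.0705). In the WT libraries and KO replicate 2 alone, which all carry those transcripts, it passed (-0.61, adjusted p = 0.0279), with the lone KO library assumed to vary like the others.

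**Figure D4:**
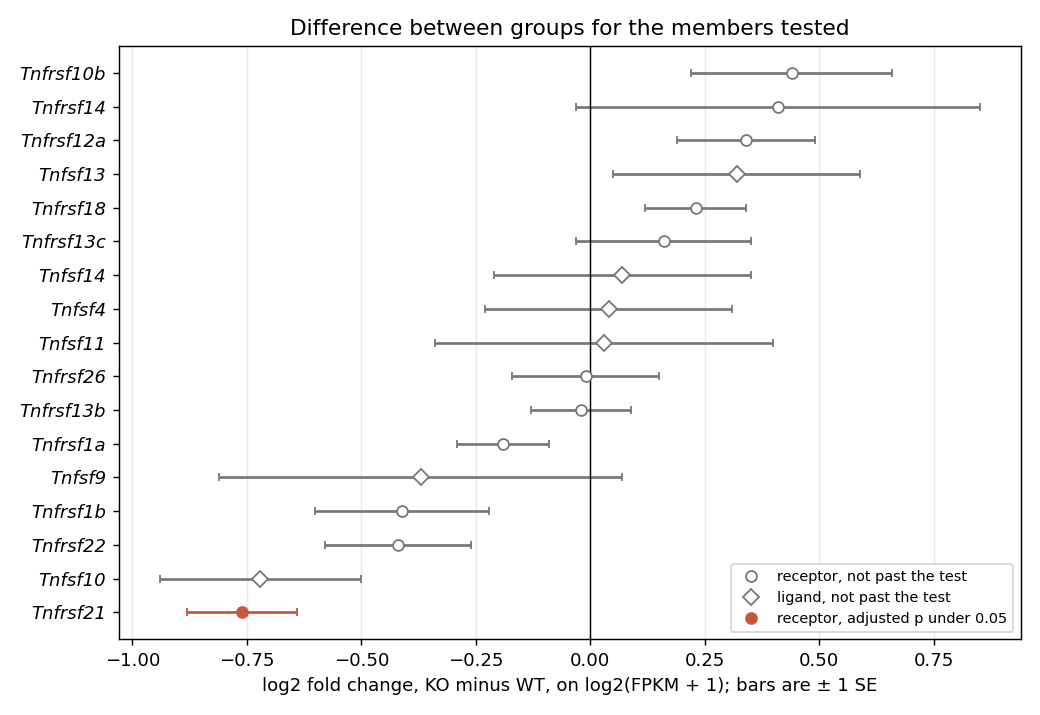
Log2 fold change of KO minus WT on log2(FPKM + 1) for the 17 members tested, with bars of ± 1 SE, circles for receptors and diamonds for ligands. Only Tnfrsf21, filled, passes at an adjusted p under 0.05, at -0.76.

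The other 2 death-domain receptors tested, Tnfrsf1a and Tnfrsf10b, did not pass, and Tnfrsf25 was under the filter. Tnfrsf1a was at 40.1, 37.1 and 37.5 FPKM in WT and at 32.0, 33.1 and 35.3 FPKM in KO, without overlap but by a small margin (38.2 ± 1.59 and 33.4 ± 1.68 FPKM, -0.19 ± 0.10 SE, 95% interval -0.40 to 0.03, limma adjusted p = 0.243). Tnfrsf10b was at 0.909, 1.78 and 0.858 FPKM in WT and at 1.88, 1.92 and 1.92 FPKM in KO (0.44, interval -0.07 to 0.94, limma adjusted p = 0.243). Its ligand gene Tnfsf10 lay on the other side. It was at 7.03, 5.05 and 5.29 FPKM in WT and at 2.55, 2.45 and 4.58 FPKM in KO, every KO library below every WT library. The log2 fold change of Tnfsf10 was -0.72 (interval -1.22 to -0.22) and missed the threshold after adjustment (limma adjusted p = 0.0712). It passed with limma's voom on recovered reads (-0.94, adjusted p = 0.0245) and without KO replicate 3 (-0.94, limma adjusted p = 0.0156).

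Among TRAF-binding receptors the B-cell receptor Tnfrsf13b differed least, at 41.6 ± 4.88 FPKM in WT and 40.8 ± 1.94 FPKM in KO (-0.02 ± 0.11 SE, interval -0.27 to 0.23, limma adjusted p = 0.918). Tnfrsf13c was at 7.41 ± 1.64 and 8.33 ± 1.39 FPKM (0.16, interval -0.26 to 0.58). The plasma-cell receptor gene Tnfrsf17, of the same group, had 0, 1 and 0 reads in WT and 2, 0 and 0 in KO. Values of Tnfrsf13b in KO replicates 1 and 3, the libraries rich in Igkc, were 42.5 and 41.1 FPKM against 38.7 FPKM in KO replicate 2. The summed level of 12 B and plasma cell markers was 429 to 449 FPKM in WT and 227 to 3700 FPKM in KO, and its part in these values was not tested.

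The inflammatory receptor Tnfrsf1b was at 69.4, 64.8 and 53.2 FPKM in WT and at 34.6, 48.3 and 59.9 FPKM in KO, and the groups overlapped through KO replicate 3 (62.5 ± 8.34 and 47.6 ± 12.6 FPKM, -0.41 ± 0.19 SE, interval -0.83 to 0.01, limma adjusted p = 0.186). Without KO replicate 3 it passed (-0.59, limma adjusted p = 0.0442). Tnfrsf12a was at 23.1, 28.7 and 24.3 FPKM in WT and at 37.6, 34.3 and 25.8 FPKM in KO (means 25.4 ± 2.95 and 32.6 ± 6.05 FPKM, 0.34 ± 0.15 SE, interval 0.00 to 0.68, limma adjusted p = 0.185). It too passed without that library (0.49, limma adjusted p = 0.0329), so 1 member was then called higher and 3 lower (23.5% of the 17, with 14.8% of all genes called in that fit). KO replicate 3 was the KO library nearest the WT mean in 9 of the 17 tested members, against 38.0% of all tested genes. Tnfrsf18 was at 33.4, 32.8 and 30.6 FPKM in KO, each above every WT library, with means of 32.2 ± 1.46 against 27.4 ± 2.64 FPKM, and did not pass (0.23 ± 0.11 SE, interval -0.01 to 0.47, limma adjusted p = 0.205). Tnfrsf14, which encodes the receptor HVEM, was at 3.95 FPKM (at least 33 reads) in KO replicate 1 and at 0.442 to 1.52 FPKM (at least 3 to 11 reads) in the other 5 libraries. Of the 9 T and NK cell markers, Trac and Klrb1c were also highest in KO replicate 1, at 4.70 and 3.32 FPKM. The others were not: Cd3d, Cd3g, Cd8a and Ncr1 were at 0 there, Cd3e and Cd4 were at 0.0965 and 1.1 FPKM, below every WT library, and the list's sum was 300 FPKM against 356 to 420 FPKM in WT. Their part in the Tnfrsf14 value was not tested.

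The decoy receptor Tnfrsf22 was at 4.26, 3.98 and 4.14 FPKM in WT and at 2.52, 2.94 and 3.05 FPKM in KO. The groups did not overlap and the mean was 1.46-fold lower, but the test did not pass after adjustment (-0.42, interval -0.78 to -0.06, limma adjusted p = 0.125). Its neighbour Tnfrsf26 was at 15.7, 13.1 and 11.9 FPKM in WT and at 16.4, 12.2 and 12 FPKM in KO. These groups overlapped widely, with means of 13.6 ± 1.90 and 13.5 ± 2.51 FPKM (-0.01 ± 0.16 SE, interval -0.36 to 0.35, limma adjusted p = 0.978).

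Ligand transcripts were more scattered among the KO libraries than among the WT libraries. Over the 6 ligands tested, the median coefficient of variation was 17.3% in WT and 50.4% in KO, against 20.8 and 25.5% over the 3642 tested genes with a mean under 5 FPKM. Tnfsf9 was at 5.41, 4.12 and 0.599 FPKM in KO, from at least 48, 35 and 4 reads, while the WT libraries ran from 3.47 to 4.55 FPKM. Tnfsf11 went the opposite way, at 1.05, 2.78 and 5.93 FPKM in KO (17, 43 and 72 reads) against 2.44 to 3.15 FPKM in WT. In both genes a KO library fell on each side of the WT range. Tnfsf14 was at 2.46, 1.4 and 4.46 FPKM in KO and within 2.29 to 2.50 FPKM in WT. The log2 fold changes of Tnfsf9, Tnfsf11 and Tnfsf14 were -0.37, 0.03 and 0.07 with 95% intervals of -1.36 to 0.63, -0.82 to 0.87 and -0.56 to 0.70, so these data limit a change in their mean only loosely. Tnfsf13 and Tnfsf4 also did not pass (0.32 and 0.04, limma adjusted p = 0.480 and 0.943).

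The other 14 members were under the filter, 13 of them with reads in at least 1 library. Of these, Tnfrsf25, a receptor of T cells, had 2, 2 and 0 reads in WT and 12, 12 and 11 in KO, or 0.0968 ± 0.0840 and 0.794 ± 0.0846 FPKM. The 3 KO libraries were close together and above every WT library, and the ratio of depth-scaled reads was 8.21 (exact 95% interval for counting error 2.94 to 31.8). With no filter, where 3.04% of 19373 genes were called and 1.73% were called higher, Tnfrsf25 passed (log2 fold change 0.71 on log2(FPKM + 1), limma adjusted p = 0.0265). By voom on recovered reads with no filter it also passed (adjusted p = 0.0184), where 7.23% were called and the members past it were Tnfrsf21, Tnfrsf25 and Tnfsf10. That voom call was lost without WT replicate 3 (adjusted p = 0.115). In the unfiltered limma fit the call was lost when any WT library or KO replicate 1 or 2 was left out (limma adjusted p = 0.0903, 0.125, 0.114, 0.0546 and 0.0581) and held without KO replicate 3 (0.0435). It was also lost with the replicate block, the term for Y-linked transcripts and KO replicate 2 alone (0.119, 0.0991 and 0.107).

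Tnfrsf11b, the osteoprotegerin gene, stood just under the filter, with a mean of 0.974 FPKM over the 6 libraries. It had 10, 6 and 5 reads in WT and 37, 19 and 28 in KO, a depth-scaled ratio of 3.75 (exact 95% interval 2.31 to 6.38), with no overlap. It did not pass with no filter (0.84, limma adjusted p = 0.0771) or by voom (adjusted p = 0.0510), except by voom without KO replicate 2 (adjusted p = 0.0262). Tnfsf8, the ligand of CD30, had 9, 22 and 13 reads in WT and 4, 6 and 0 in KO, 4.69-fold fewer after scaling (exact 95% interval 2.32 to 10.4), and did not pass either (-0.53, limma adjusted p = 0.141, and 0.0582 by voom), except by voom without that same library (adjusted p = 0.0443). These 3 genes were singled out after their values were seen. The groups overlapped in the other 10 low members with reads. How often groups did not overlap among all genes under the filter was not computed. Over the 6 libraries the ligands Tnfsf12 (TWEAK) and Tnfsf13b (BAFF) had means of 0.834 and 0.384 FPKM. Among receptors the means were 0.310 FPKM for Tnfrsf23, 0.249 FPKM for Tnfrsf11a, 0.158 FPKM for Tnfrsf4 and 0.147 FPKM for Tnfrsf19. The last 4, Tnfrsf9, Tnfrsf17, Tnfsf15 and Tnfrsf8, were under 0.1 FPKM.

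Genes of the same signalling system under other names were taken from a list of 55, of which 45 were tested. Of these 6 passed (13.3%, against 10.9% of all genes), 4 lower and 2 higher in KO, and the list's median log2 fold change was -0.067. The 2 tested ligands of the list moved in opposite directions. Tnf, the founding inflammatory cytokine, was at 12.4, 16.9 and 16.5 FPKM in WT and at 4.90, 4.33 and 2.14 FPKM in KO, 4.03-fold lower (-1.80 ± 0.24 SE, limma adjusted p = 0.00286). Ltb, which encodes lymphotoxin beta, was at 113, 92.5 and 100 FPKM in WT and at 219, 201 and 203 FPKM in KO, 2.04-fold higher (1.02 ± 0.10, limma adjusted p = 0.000638). In neither gene did the groups come near each other. Tnf lost its call once Y-linked transcripts were a term in the fit (-1.60, limma adjusted p = 0.0505), and Ltb passed in all 14 alternatives.

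None of the 4 tested receptors named outside the Tnfrsf series passed in limma, also at an unadjusted p under 0.05 (0 of 4), or by voom (0 of 4). The most abundant, Cd27, a costimulatory receptor that also divides LSK cells, was at 108 ± 8.01 FPKM in WT and 94.1 ± 10 FPKM in KO (limma adjusted p = 0.271). Ltbr, which binds lymphotoxin beta with lymphotoxin alpha and also LIGHT, was at 20.7 ± 3.31 and 20.6 ± 4.07 FPKM. The death receptor Fas was at 0.914 ± 0.278 and 1.78 ± 1.5 FPKM. Cd70, the ligand of Cd27, and Ngfr were at 0 in every library.

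Downstream, 2 of the 18 tested adaptors and ubiquitin enzymes fell (11.1%, against 10.9% of all genes called in either direction). Tnfaip3, which encodes A20, a ubiquitin editor that restrains NF-kB, was at 63.7, 74.5 and 67.8 FPKM in WT and at 33.8, 30.3 and 41.6 FPKM in KO, 1.95-fold lower (-0.95 ± 0.13 SE, limma adjusted p = 0.00304), and passed in all 14 alternatives. Traf3, an adaptor that holds the alternative NF-kB pathway in check, went from 3.02 ± 0.451 to 1.33 ± 0.222 FPKM (-0.78, limma adjusted p = 0.0331). Of the 13 kinases and 2 shedding proteases 0 passed in limma, against 2 kinases (15.4%) and 1 protease at an unadjusted p under 0.05, which 27.5% of all tested genes reached. By voom, the kinase-binding adaptor Tank, listed with the kinases, and the adaptor Traf2 were also called, both higher (0.62 and 0.48, adjusted p = 0.0415 and 0.0402). Of 6 death-machinery genes 33.3% passed, against 10.9% of all genes. Bid, a pro-apoptotic BCL2 family member cut by caspase-8, rose from 20.6 ± 1.47 to 29.8 ± 3.07 FPKM (0.51, limma adjusted p = 0.0242). Mlkl, the effector of necroptosis, fell from 27.0 ± 1.74 to 18.3 ± 2.63 FPKM (-0.54, limma adjusted p = 0.0264). The calls of Traf3, Bid and Mlkl were each lost when any 1 WT library or KO replicate 1 was left out (limma adjusted p of 0.0838 to 0.123, 0.0549 to 0.0963 and 0.0722 to 0.101). Traf3 and Bid also lost theirs without KO replicate 2 (0.0603 and 0.0651). All 3 calls were lost once Y-linked transcripts were a term (limma adjusted p = 0.190, 0.0561 and 0.255), the log2 fold change of Mlkl going to -0.32, and with the replicate block those of Traf3 and Mlkl were lost (0.0782 and 0.0653).

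**Figure D5:**
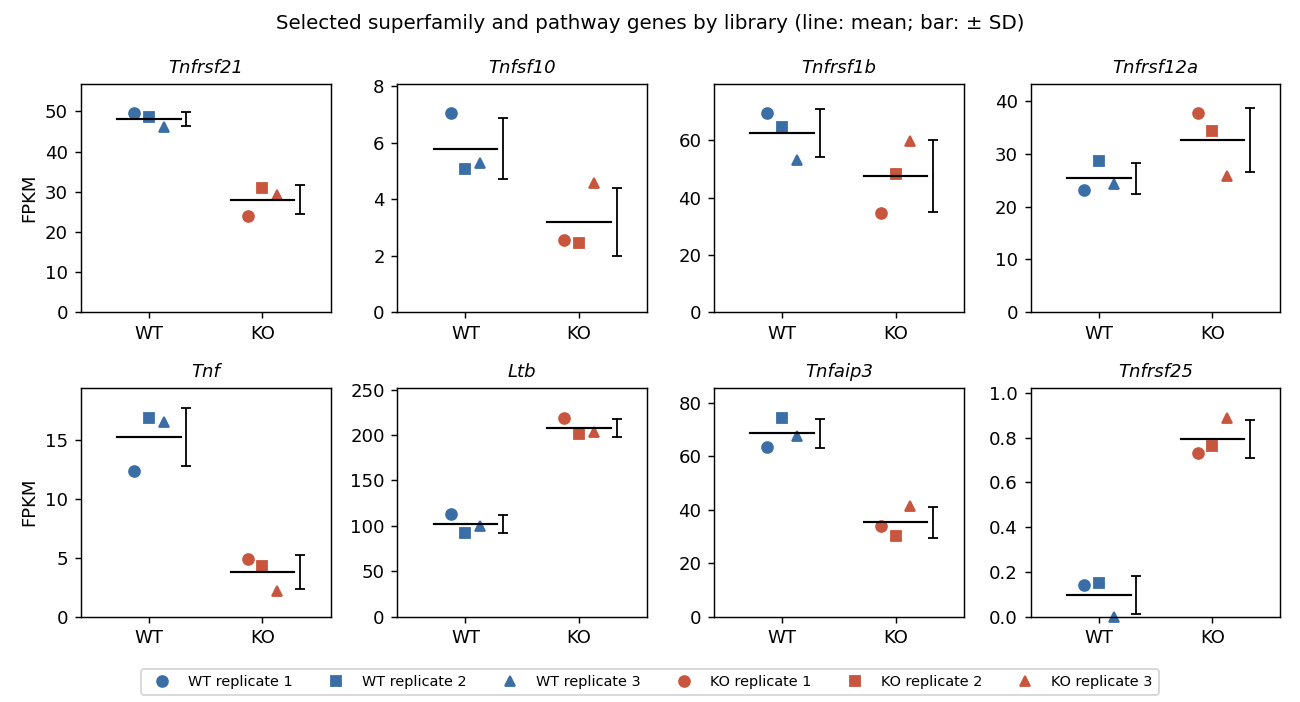
FPKM of 4 tested members, 3 pathway genes and the low member Tnfrsf25 in each library, with a line at the group mean and a bar of ± SD. The groups are apart in Tnfrsf21, Tnf, Ltb, Tnfaip3 and Tnfrsf25, narrowly apart in Tnfsf10, and overlap in Tnfrsf1b and Tnfrsf12a, where KO replicate 3 (red triangle) lies within the WT range.

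Markers of other cell types moved with the groups to different degrees. The summed level of 9 T and NK cell markers was 356 to 420 FPKM in WT and 191 to 300 FPKM in KO, nearly all of it Nkg7, while the defining genes Cd3g and Ncr1 were at 0 and the other 7 markers were detected. All markers of the other lists had reads in at least 1 library. Summed neutrophil markers ran from 115 to 235 FPKM in WT and from 25.9 to 157 FPKM in KO, and macrophage and dendritic markers from 28 to 35.6 and from 20.2 to 31.1 FPKM. Those of mast cells and basophils ran from 52.0 to 88.5 and from 63.0 to 130 FPKM, of erythroid cells from 372 to 656 and from 653 to 1230 FPKM, and of endothelial and stromal cells from 24.1 to 33.4 and from 19.7 to 23.0 FPKM. Among single markers, the mast cell protease genes Cma1 (0.149 ± 0.258 to 9.32 ± 4.80 FPKM) and Tpsb2 (0 in every WT library, 3.46 to 14 FPKM in KO) rose (limma adjusted p = 0.00213 for each), as did Klrb1c (adjusted p = 0.0195). The other tested mast cell and basophil markers did not pass. Cpa3 and Mcpt8 had means of 50 and 13.7 FPKM in WT and 56 and 12.3 FPKM in KO. Ms4a2 and Fcer1a had 1.13 and 1.10 FPKM in WT and 1.36 and 3.29 FPKM in KO. Nkg7, the macrophage gene Cd68 and the stromal gene Cxcl12 fell (limma adjusted p = 0.0193, 0.00988 and 0.0494). Cd68 and Cxcl12 were the only calls among 3 and 4 tested markers of their lists. Within the sort, the progenitor gene Cd34 fell from 675 ± 16.1 to 410 ± 47.1 FPKM (limma adjusted p = 0.00420). Their part in the values of Tnfrsf21, Tnf, Ltb and Tnfaip3 was not tested.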

How the data were processed

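RNA was measured in 6 libraries. The kits, SMART-Seq v4 for cDNA and Nextera XT for libraries per the labels' protocols, do not mark strand, so reads of the 11 members that overlap a gene on the opposite strand may include reads of that gene. The authors deposited FPKM values. The submitters' processing notes list, with no roles, build mm10, the aligner TopHat2 2.1.1, the counter HTSeq 0.6.1, and also DESeq2 1.18.1 and bcl2fastq 2.19.1.403. No source used here gives the annotation.

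Within each of 17183 genes above 0 in at least 2 libraries, FPKM stood in whole-number ratios after scaling (tolerance 1e-10), which gave whole reads. Reads were set by GENCODE M21 exon length for 50.5% of detected genes, among them 16 members, and are lower bounds in the rest. A single read in a gene of 2 kb stood for 0.0693 to 0.0921 FPKM. Intervals computed from reads hold counting error alone.

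The groups were compared on log2(FPKM + 1) by limma-trend (limma 3.58.1 under R 4.3.3). Genes whose mean reached 1 FPKM entered, with two-sided p-values adjusted by Benjamini-Hochberg over all 11371 genes and called under 0.05. Folds on this scale understate changes of low genes. The procedure was tested on simulated data. The alternatives were another pseudocount (0.1), no filter, a mean of at least 5 FPKM, voom, rescaled libraries, the replicate block, a Y-linked term and libraries left out. Voom with no filter, and the unfiltered fits with libraries left out, a block or a Y-linked term, were added after seeing the data. Members, lists and tests were chosen with earlier results of these data known. Every tested member is named, with its value in each library where it was called or had a mean of at least 10 FPKM. Low members are named where above 0.1 FPKM or chosen after their values were seen, and every called pathway gene is named. Otulin, Jchain and Adgre1 were matched by the older symbols Fam105b, Igj and Emr1. Python 3.11.15 with pandas 2.3.3, scipy 1.17.1 and matplotlib 3.10.9 was used.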

Additional observations from a re-analysis of the deposited data

How the results depend on the processing

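Over the 23 genes tested and named (17 members and 6 pathway genes), 280 of 310 values under an alternative kept their side of the threshold, 26 lost a call and 4 gained one, and 0 called values changed sign. With no filter, 1 member was called higher (main value 0), 335 genes of all were called higher and 253 lower (623 and 617), and 1 pathway gene higher and 2 lower (2 and 4). By voom, 2 members were called lower (1) and 4 pathway genes higher. With a term for Y-linked transcripts, 0 members were called lower, 214 genes of all higher and 159 lower, and 1 pathway gene higher and 1 lower. With KO replicates 1 and 3 left out together, for their lack of Y-linked transcripts, 395 genes were called higher and 431 lower. With 1 library left out at a time, members called ranged from 0 to 1 higher and from 1 to 3 lower, all genes from 213 to 791 higher and from 163 to 878 lower, and pathway genes from 1 to 3 higher and from 2 to 4 lower. Without WT replicate 1, 2 or 3 in turn, all genes called higher were 306, 213 and 287, and lower 229, 163 and 225. The causes were not tested, beyond fewer libraries in the fits with libraries left out. At a WT mean of at least 5 FPKM, 9 members counted as expressed in place of 16. With the replicate block, 436 genes of all were called higher and 369 lower, and 2 pathway genes lower, while Tnfrsf21 passed (adjusted p = 0.0175). Deviations of same-numbered libraries from their group means correlated at -0.031, 0.045 and -0.116. With 3 libraries per group this cannot show whether same-numbered libraries were handled together, and the labels do not say. Depth limits members under 1 FPKM, where a few reads set the value.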
